A study of Mus musculus with 6 samples.

Results

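The genes described here are the nuclear-encoded subunits of the mitochondrial respiratory chain, grouped by the complex they belong to. They were taken by symbol from the deposited gene table, as every entry whose name begins with the prefix of a subunit family (Nduf followed by a, ab, b, c, s or v and a number, Sdha to Sdhd, Uqcr, Cox4 to Cox8, or Atp5). This gave 84 of the 19330 genes in the table. Of these, 38 carry names of complex I, 4 of complex II, 8 of complex III, 17 of complex IV and 17 of complex V. No measured value was used to choose them. A few names do not match the present view of the complexes: Ndufa4 is now counted as a subunit of complex IV, Ndufa4l2 is its paralog, Cox7a2l promotes the joining of complexes into supercomplexes, and Atp5s and Atp5sl are not structural subunits of the synthase. They were kept where their symbols place them.

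Complexes I and II feed electrons from NADH and succinate to ubiquinone, complex III passes them to cytochrome c, and complex IV hands them to oxygen. Complexes I, III and IV pump protons across the inner mitochondrial membrane, and complex V, the ATP synthase, uses the gradient to make ATP. Complex II is the only one of them built from nuclear-encoded subunits alone, and it is also an enzyme of the citric acid cycle. Several complex IV subunits exist as broadly expressed and tissue-restricted versions, encoded by separate genes. Pluripotent stem cells of the mouse respire, yet also depend strongly on glycolysis, and cells change their respiratory gene expression when they are reprogrammed.

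RNA sequencing was done on 6 mouse libraries. They comprised control induced pluripotent stem cell (iPSC) lines 3 and 7, palmitoylcarnitine iPSC (PC iPSC) lines 5 and 13, 1 library of embryonic stem cells (ESC) and 1 of mouse embryonic fibroblasts (MEF). Per the labels' protocols, ESC and iPSC grew with leukemia inhibitory factor on a feeder layer of MEF whose division had been stopped with mitomycin C, so RNA of feeder fibroblasts can be in these libraries. The ESC carry the names B6 and B6/blu, and the dose and timing of palmitoylcarnitine (a long-chain fatty acid joined to carnitine), the origin of the MEF and the reprogramming method are not given in the labels. The labels do not tell whether each library is its own culture or animal. The p-values therefore cover the spread between these libraries, which may be technical, and the tests take ESC and MEF, with 1 library each, to be as variable as the iPSC.

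Each library had 26.51 M to 27.99 M reads assigned to genes. The summed RPKM (reads scaled by gene length and library total) of 10 pluripotency markers was 3936 to 4993 in the iPSC lines, 5531 in ESC and 254 in MEF. Dppa5a alone was at 2185 to 3053 RPKM in the iPSC lines and 3147 in ESC. Against ESC, edgeR called 1 of the 10 higher in iPSC, Zfp42, and 2 lower, Klf2 and Fgf4. The MEF library was near 0 for Nanog, at 0.05 RPKM, and for Dppa5a, at 0, yet it held Pou5f1 at 158 RPKM and Sox2 at 88.2 RPKM, which are pluripotency factors. The 12 fibroblast markers summed to 587, 1170, 1288 and 1070 RPKM in control 3, control 7, PC 5 and PC 13, to 322 in ESC and to 7642 in MEF. By edgeR 11 of the 12 were called lower in iPSC than in MEF, but by unlike amounts. Col1a1 was at 258 to 635 RPKM in iPSC and 904 in MEF, and Pdgfra at 0.667 to 0.852 and 66.0. Among the iPSC lines, Mgp was highest in control 3, where the sum was lowest. The part of feeder or other cells in the differences below was not tested. In such bulk libraries, fewer cells of a type and less RNA per cell cannot be told apart.

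Promoters of the subunit genes were searched for the letters that nuclear respiratory factors are known to read. These were 3 motifs, those of NRF1, ETS factors and YY1. A promoter window of 250 bases before and 50 bases after the start of transcription (RefSeq, GRCm38.p6) was found for 69 of the 84 genes, as 75 windows. The motif of NRF1 (GCGCA and GCGC with any base between them), searched like the others on both strands, was in 24% of these windows, against 8.32% of the windows of all genes tested and 4.60% of all 32851 windows in the table. The YY1 motif AAGATGGC was in 16% of the subunit windows, against 3.71% of those of tested genes and 2.75% of all. CCGGAAG, a core of ETS family factors such as GABP, was in 21.3%, against 14.8% and 8.86%. The GC box GGGCGG was in 40% of the subunit windows, against 58.2% of those of tested genes and 35.7% of all. The letters ACGTG were in 26.7%, against 24.0% and 19.6%, and the E-box CACGTG, which contains ACGTG, was in 12%, against 9.40% and 7.15%. TATAAA was in 9.33%, against 8.07% and 13.6%. A match is only a run of letters in the window. No binding was measured, and whether these shares differ was not tested. The last 170 bases before and the first 30 bases after the start are printed 5′ to 3′ for 6 subunits that cover all 5 complexes and were picked because a match lies in this stretch, with NRF1, YY1 and ETS matches in capitals. The regions are chr7:3617203-3617402 (plus strand) for Ndufa3, chr9:50603820-50604019 (minus strand) for Sdhd, chr9:108936478-108936677 (plus strand) for Uqcrc1, chr5:115348929-115349128 (minus strand) for Cox6a1, chr15:102671018-102671217 (minus strand) for Atp5g2 and chr3:105959234-105959433 (minus strand) for Atp5f1.
Ndufa3: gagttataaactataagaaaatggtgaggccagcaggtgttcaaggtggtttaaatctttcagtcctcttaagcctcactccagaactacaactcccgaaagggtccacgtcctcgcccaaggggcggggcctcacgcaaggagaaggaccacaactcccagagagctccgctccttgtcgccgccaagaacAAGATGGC
Sdhd: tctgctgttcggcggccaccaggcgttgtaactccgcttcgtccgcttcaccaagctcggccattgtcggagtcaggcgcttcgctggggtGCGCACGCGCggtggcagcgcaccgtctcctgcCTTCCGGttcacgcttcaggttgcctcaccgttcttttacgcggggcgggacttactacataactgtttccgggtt
Uqcrc1: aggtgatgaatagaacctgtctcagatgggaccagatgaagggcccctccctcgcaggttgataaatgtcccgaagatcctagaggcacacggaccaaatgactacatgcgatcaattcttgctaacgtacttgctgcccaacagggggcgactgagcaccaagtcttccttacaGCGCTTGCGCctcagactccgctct
Cox6a1: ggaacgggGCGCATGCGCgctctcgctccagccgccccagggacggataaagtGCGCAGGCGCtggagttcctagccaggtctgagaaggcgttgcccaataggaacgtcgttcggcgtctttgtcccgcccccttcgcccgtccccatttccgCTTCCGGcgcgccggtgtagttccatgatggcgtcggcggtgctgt
Atp5g2: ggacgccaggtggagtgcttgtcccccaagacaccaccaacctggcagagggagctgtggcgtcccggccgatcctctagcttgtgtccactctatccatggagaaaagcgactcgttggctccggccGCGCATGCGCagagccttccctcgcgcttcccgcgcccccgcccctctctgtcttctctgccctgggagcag
Atp5f1: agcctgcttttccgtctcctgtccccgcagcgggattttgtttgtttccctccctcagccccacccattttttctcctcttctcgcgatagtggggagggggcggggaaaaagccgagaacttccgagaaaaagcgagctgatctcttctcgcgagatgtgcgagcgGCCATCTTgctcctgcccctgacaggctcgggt

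The paralog pairs of complex IV are shown next, because their members differed most between libraries, together with Cox7b, which had one of the largest differences between PC and control lines. Cox6b1 (chr7:30626085-30626284 (minus strand)) is broadly expressed and Cox6b2 (chr7:4753065-4753264 (minus strand)) is known from testis. Cox7a2 (chr9:79759824-79760023 (minus strand)) is broadly expressed and Cox7a1 (chr7:30184001-30184200 (plus strand)) is known from heart and skeletal muscle. Cox7b lies at chrX:106015530-106015729 (plus strand). The same motifs are in capitals.
Cox6b1: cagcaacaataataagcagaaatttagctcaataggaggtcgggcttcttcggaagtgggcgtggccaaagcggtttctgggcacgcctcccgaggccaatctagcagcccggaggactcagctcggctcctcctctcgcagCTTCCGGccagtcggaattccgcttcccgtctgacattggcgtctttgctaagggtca
Cox6b2: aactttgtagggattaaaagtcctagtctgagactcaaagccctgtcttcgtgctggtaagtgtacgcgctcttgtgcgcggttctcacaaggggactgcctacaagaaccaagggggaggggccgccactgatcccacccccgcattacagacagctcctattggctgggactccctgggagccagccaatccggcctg
Cox7a2: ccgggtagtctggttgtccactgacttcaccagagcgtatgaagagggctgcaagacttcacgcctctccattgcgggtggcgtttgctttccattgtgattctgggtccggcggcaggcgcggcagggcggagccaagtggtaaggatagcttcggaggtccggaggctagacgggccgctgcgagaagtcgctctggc
Cox7a1: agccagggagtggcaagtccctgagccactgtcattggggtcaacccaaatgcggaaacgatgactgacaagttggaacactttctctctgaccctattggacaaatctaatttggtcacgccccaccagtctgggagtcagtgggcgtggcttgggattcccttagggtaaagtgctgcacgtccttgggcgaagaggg
Cox7b: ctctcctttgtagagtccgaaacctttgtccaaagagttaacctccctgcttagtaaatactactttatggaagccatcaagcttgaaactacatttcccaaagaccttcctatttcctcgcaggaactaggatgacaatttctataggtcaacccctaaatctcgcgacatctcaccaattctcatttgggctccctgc

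Of these 5 windows, that of Cox6b1 held an ETS core in the printed stretch and the other 4 held none of the 3 motifs there. The full Cox7b window had 5 CpG dinucleotides, the lowest number among the 75 subunit windows, and that of Cox7a1 had 7, where the median was 19 for subunit windows and 18 for those of all genes tested.

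Respiratory chain RNA was abundant in all 5 pluripotent libraries and lower in MEF. The 84 genes took 1.24% and 1.17% of assigned reads in control 3 and control 7, 1.11% and 1.15% in PC 5 and PC 13, 1.15% in ESC and 0.489% in MEF. The median subunit stood at 94.4, 90.4, 86.2 and 87.9 RPKM in the 4 iPSC lines in that order, at 84.1 RPKM in ESC and at 44.2 RPKM in MEF. Levels per length were highest in complex V and lowest in complex I in every library. The medians in control 3 were 174 RPKM for complex V, 146 for III, 128 for IV, 89.7 for II and 67.8 for I. The highest of all was Atp5b, the catalytic beta subunit of the ATP synthase, at 1213, 1184, 1121 and 1158 RPKM in the iPSC lines, 1247 in ESC and 311 in MEF. The highest members of the other complexes by mean RPKM were Ndufa4 (iPSC mean 242 ± 34.5 RPKM, SD, n = 4), Uqcrc1 (273 ± 24.4) and Cox8a (441 ± 25.7), whereas the 4 complex II genes lay between 85.4 and 93.5 RPKM in the iPSC mean. The lowest were Ndufa4l2 in complex I, Cox6a2 in complex IV and Atp5s in complex V (4.76 ± 0.907 RPKM), and Uqcrfs1 (77.9 ± 3.29) in complex III.

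**Figure D1:**
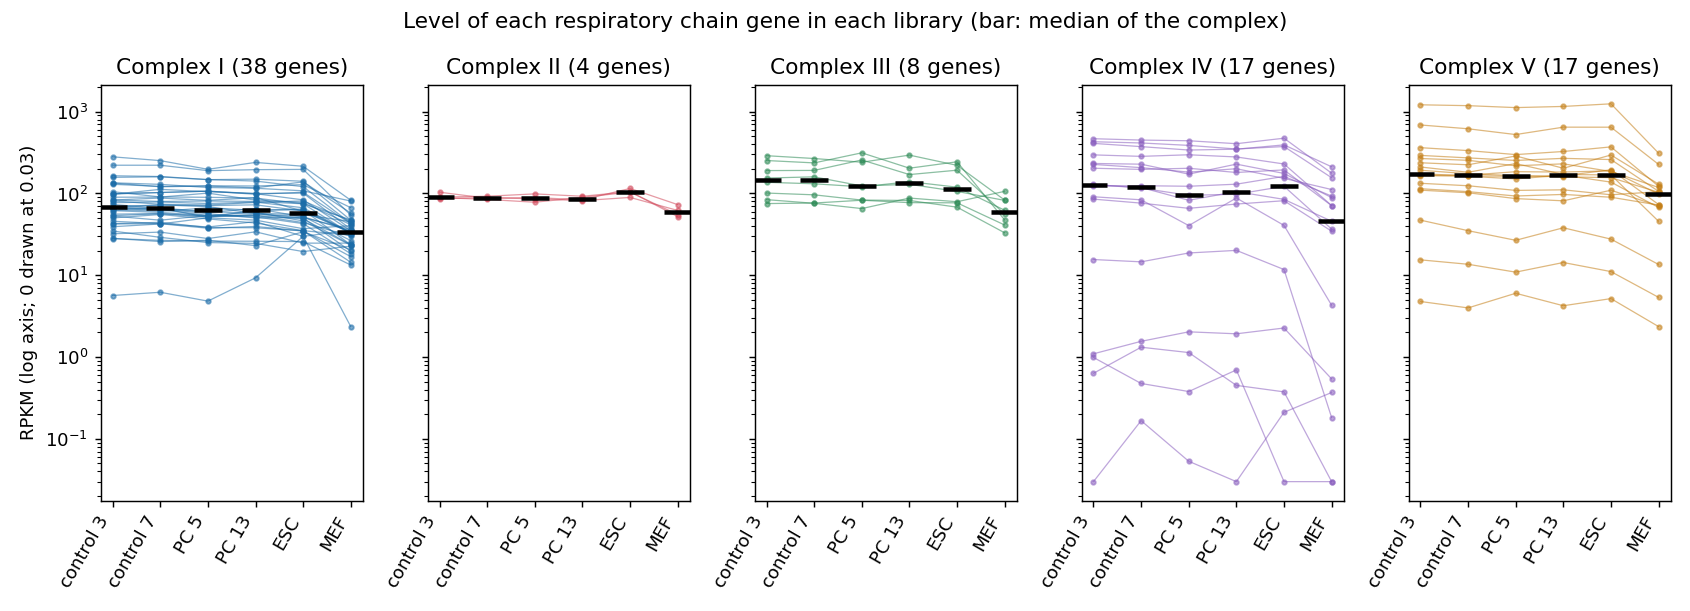
RPKM on a log axis of each of the 84 genes in the 6 libraries, 1 panel per complex; a thin line joins the values of 1 gene and black bars are the medians of the complex. The median of every complex is lowest in MEF, and the low genes of complex IV are tissue-restricted paralogs.

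The iPSC lines carried more RNA of all 5 complexes than MEF. Of the 83 subunit genes that passed edgeR's filter on low counts (Cox6a2 did not), 74 were called higher in iPSC than in MEF and 0 lower, by edgeR's quasi-likelihood test at a Benjamini-Hochberg adjusted p under 0.05. The 74 include Cox7b2 and Cox8c, which had 0 reads in MEF. Both passed the filter only through their iPSC counts, so they could not have come out lower. Cox6a2, which the filter removed, had its highest count, 7 reads, in MEF. Over all 16435 genes tested, 36.5% were called higher and 31.6% lower; among the 4026 genes with a mean of at least 20 RPKM, 56.5% were higher and 18.9% lower. The median subunit was 2.35-fold higher (log2 difference 1.23), beside a median log2 difference of 0.16 over all genes and of 0.67 over those with at least 20 RPKM. Genes called higher were 33 of 38 in complex I, 3 of 4 in II and 7 of 8 in III. In complexes IV and V they were 15 of 16 and 16 of 17, and the 15 include Cox7b2 and Cox8c. The medians over all tested genes, called or not, were 2.20-fold, 1.49-fold, 2.44-fold, 2.68-fold and 2.30-fold in complexes I to V. Whether the complexes differ from each other was not tested. All 4 iPSC lines lay above MEF for 81 of the 84 genes, as they did for 47.3% of all genes tested, and below MEF for 2 (Uqcrh and Cox6a2), as for 41.7%. For the count of 0 lower, 0 subunit genes had a negative difference at an unadjusted p under 0.05 in edgeR. Over all 16435 genes tested, edgeR had 11712 under that p, 6308 of them higher. DESeq2 called 69 subunit genes higher and 0 lower.

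**Figure D2:**
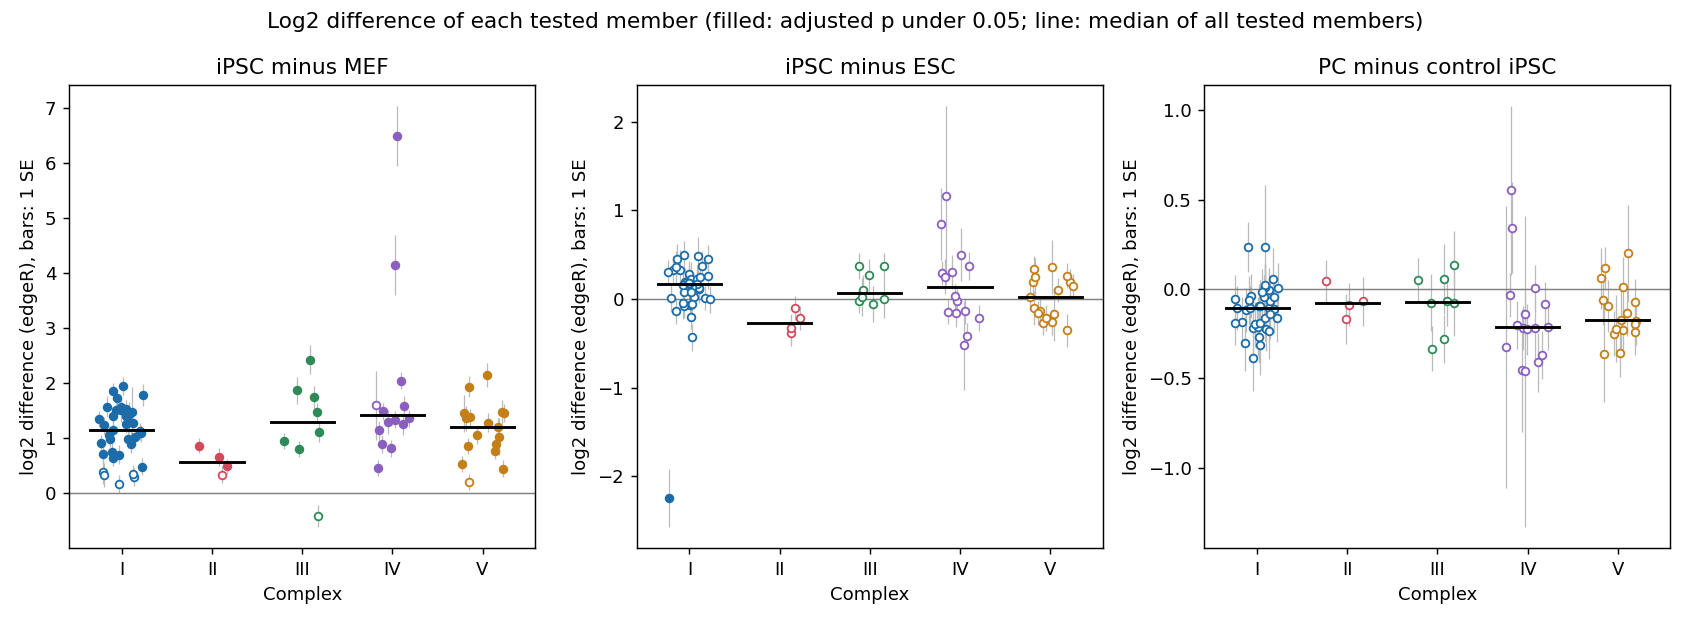
Log2 difference of each tested gene from the edgeR fit with 1 standard error, by complex, for iPSC minus MEF, iPSC minus ESC and PC minus control iPSC; filled points have an adjusted p under 0.05 and black lines are medians of all tested members. Cox7b2 and Cox8c are not drawn where the ESC or MEF library had 0 reads. Nearly all points against MEF are filled and above 0, 1 point is filled against ESC (Ndufa4l2) and none in PC against control. Each panel has its own vertical axis.

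Within complex I, the core subunits that carry electrons mostly followed the median. Ndufv1, which binds NADH, was at 64.6, 60.5, 66.8 and 62.4 RPKM in the iPSC lines (control 3, control 7, PC 5, PC 13), 64.4 in ESC and 32.8 in MEF. Its iPSC values lay close together and all above MEF, with a log2 difference of 0.98 (SE 0.16, edgeR adjusted p = 0.00104). Ndufv2, an iron-sulfur subunit, was higher by 1.40 (SE 0.16). The core subunits Ndufs3, Ndufs7 and Ndufs8 were higher by 0.90, 1.09 and 1.06 log2 units. Ndufs1, the largest iron-sulfur subunit, missed the threshold. It stood at 45.7, 42.9, 38.9 and 45.3 RPKM in iPSC and 35.7 in MEF, a log2 difference of 0.30 (SE 0.16, edgeR adjusted p = 0.143). All 4 lines were nevertheless above MEF for Ndufs1. Among the accessory subunits, Ndufa7 and Ndufb8 had the largest differences, 1.95 (SE 0.16) and 1.86 (SE 0.15). The other complex I genes not called were Ndufa1, Ndufa5, Ndufa8 and Ndufv3, with differences of 0.39, 0.33, 0.17 and 0.36.

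Complex II had the smallest median difference from MEF. Sdha, the flavoprotein that oxidizes succinate, was at 104, 87.4, 89.1 and 83.7 RPKM in iPSC, 115 in ESC and 73.0 in MEF, with a log2 difference of 0.34 from MEF that was not called (SE 0.16, edgeR adjusted p = 0.0996). The iron-sulfur subunit Sdhb rose by 0.87 (SE 0.14). The membrane anchors Sdhc and Sdhd rose by 0.49 (SE 0.14) and 0.65 (SE 0.16). ESC had the highest value of the 6 libraries for each of the 4 genes.

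Complex III held the only negative difference from MEF among the 83 tested genes and, leaving aside the tissue-restricted paralogs, the largest positive one. Uqcr10, a small subunit, was at 253, 236, 314 and 204 RPKM in iPSC, 244 in ESC and 47.4 in MEF, and rose 5.38-fold against MEF (log2 2.43, SE 0.26). Uqcrq, another small subunit, rose by 1.87 (SE 0.24), the core protein Uqcrc1 by 1.74 (SE 0.20) and the Rieske iron-sulfur protein Uqcrfs1 by 0.94 (SE 0.14). Uqcrh, the hinge protein that binds near cytochrome c1, was at 84.0, 75.8, 65.3 and 87.9 RPKM in iPSC, 79.2 in ESC and 106 in MEF. All 4 iPSC lines and ESC were below MEF for Uqcrh, and its log2 difference was −0.42 (SE 0.20, edgeR adjusted p = 0.104). It passed the threshold when the line PC 13 was left out (−0.55, adjusted p = 0.0149) and when only genes with a mean of at least 5 RPKM were fitted (−0.65, adjusted p = 0.0227).

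In complex IV, the broadly expressed subunits Cox4i1, Cox5a and Cox5b rose by 0.81 (SE 0.15), 2.04 (SE 0.16) and 1.49 (SE 0.15) against MEF. Cox5a was at 296, 284, 297 and 279 RPKM in iPSC, 229 in ESC and 71.2 in MEF, so that all 4 iPSC lines were above ESC and MEF. Cox7b, a small subunit encoded on the X chromosome (chrX:106015700-106022450, plus strand, GRCm38), was at 128, 118, 82.6 and 105 RPKM in iPSC, 84.7 in ESC and 45.8 in MEF. It rose by 1.26 against MEF (SE 0.20, edgeR adjusted p = 0.00145). Cox7a2l rose least among the complex IV genes called, by 0.45 (SE 0.15).

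In complex V, the head subunits Atp5a1 and Atp5b rose by 1.47 (SE 0.22) and 1.93 (SE 0.19), and Atp5c1, the gamma subunit of the rotating stalk, by 1.20 (SE 0.16). The 3 genes Atp5g1, Atp5g2 and Atp5g3 encode the same mature c subunit of the membrane ring. Atp5g1 was at 211, 181, 232 and 171 RPKM in iPSC, 169 in ESC and 45.6 in MEF. Atp5g2 was at 363, 334, 299 and 326 in iPSC, 371 in ESC and 122 in MEF, and Atp5g3 was at 192, 174, 165 and 160 in iPSC, 156 in ESC and 103 in MEF. Their log2 differences from MEF were 2.14 (SE 0.22), 1.45 (SE 0.17) and 0.76 (SE 0.15). Atp5g1 therefore made up 28.3% ± 3.44 of their summed RPKM in iPSC (SD, n = 4), 24.2% in ESC and 16.8% in MEF, whereas Atp5g3 made up 24.6% ± 0.718, 22.4% and 38.1%. Atp5l, the g subunit, was the complex V gene not called, with 0.20 (SE 0.14).

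Short subunit genes often have processed pseudogenes, and reads shared with near-identical copies are uncertain. In GENCODE M21, 20 of the 84 genes had at least 1 other gene with 90% identity over at least 50% of the transcript, Atp5l having 13, Atp5h 5, Atp5g1 4 and Uqcrb 4. In addition 30 genes, in part the same ones, shared exon bases with a different gene. Of the 20 genes with copies, 19 were called higher than in MEF, with a median log2 difference of 1.37. Of the 44 tested genes with neither copies nor exon overlap, 37 were called higher, with a median of 1.07.

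Tissue-restricted paralogs of complex IV were present in the pluripotent libraries beside their broadly expressed partners. Cox7a1, the heart and skeletal muscle version (chr7:30184171-30186030, plus strand), was at 15.6, 14.6, 18.7 and 20.1 RPKM in iPSC, 11.8 in ESC and 0.182 in MEF. The MEF value rests on 2 reads, against 740 in the 4 iPSC libraries together, a ratio of 95.02 with a 95% counting interval of 26.2 to 786. It was called higher than in MEF (edgeR log2 6.49, SE 0.54, adjusted p = 8.02e-05). Its partner Cox7a2 was at 85.3, 76.2, 65.8 and 74.2 RPKM in iPSC, 81.5 in ESC and 34.6 in MEF, so Cox7a1 was 15.4% to 22.2% of the pair in iPSC, 12.6% in ESC and 0.523% in MEF. The 8 muscle markers summed to 10.2 to 64.4 RPKM in iPSC, 17.5 in ESC and 0.997 in MEF, and the part of muscle-like cells was not tested. The 3 of them that passed the filter, Acta1, Myh3 and Tnni1, were all called higher in iPSC than in MEF by edgeR. Acta1 made up most of the sum and reached 7.19 to 62.0 RPKM in iPSC, and Myod1, Myog and Ckm were at or under 0.17 RPKM in every library.

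Cox6b2, the testis version of a subunit that holds the complex IV dimer together (chr7:4751792-4753094, minus strand), was at 91.1, 83.6, 40.5 and 88.0 RPKM in iPSC, 40.7 in ESC and 4.29 in MEF. Lines control 3, control 7 and PC 13 were thus at about the same level, and PC 5 was as low as ESC. Cox6b2 made up 28.7%, 28.8%, 18.2% and 30.5% of the pair with Cox6b1 in the iPSC lines, 21.0% in ESC and 3.70% in MEF. It rose 17.8-fold against MEF (log2 4.15, SE 0.54, edgeR adjusted p = 0.000557), whereas Cox6b1 rose 1.85-fold (log2 0.89, SE 0.16). Against ESC its difference was 0.84 (SE 0.41, edgeR adjusted p = 0.217), and it was called when PC 5 was left out (1.06, adjusted p = 0.0184) or control 7 was left out (0.87, adjusted p = 0.00793). The 5 male germ cell markers in the table summed to 35.4 to 95.5 RPKM in iPSC, 26.1 in ESC and 3.02 in MEF, and their part was not tested. Among them, Dazl was at 23.7 to 75.2 RPKM in iPSC, highest in PC 5, and at 7.02 in ESC. Ddx4 and Sycp3 did not share this rise over ESC. Ddx4 was at 2.76 to 8.79 RPKM in iPSC and 8.77 in ESC, and Sycp3 at 7.94 to 10.7 and 10.2. Prm1 and Acrv1, which mark late male germ cells, were at or under 0.72 RPKM.

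The remaining complex IV paralogs were scarce. Cox7b2, a testis version of Cox7b, had 10, 20, 18 and 7 reads in iPSC, 6 in ESC and 0 in MEF. Its iPSC mean of 0.885 RPKM was 4.72-fold the level that 3 reads would give in MEF. Cox8c, a testis version of Cox8a, had 13, 6, 5 and 9 reads in iPSC and 0 in both ESC and MEF. The iPSC mean of Cox8c, 0.635 RPKM, was 2.81-fold the level that 3 reads would give in ESC and 2.82-fold that in MEF. Both counts were small: Cox7b2 and Cox8c were called against MEF by edgeR, and each call was lost under at least 1 alternative. Cox4i2, the version of Cox4i1 known from lung and from low oxygen, was at 1.10, 1.56, 2.03 and 1.92 RPKM in iPSC, 2.27 in ESC and 0.541 in MEF, between 0.255% and 0.596% of its pair. The 6 pericyte and smooth muscle markers, cell types that also use Cox4i2, summed to 360 to 1124 RPKM in iPSC, 431 in ESC and 76.9 in MEF, and their part was not tested. Of these 6, Acta2, Tagln, Cnn1 and Myh11 were called higher in iPSC than in MEF by edgeR, Rgs5 was called lower, and Kcnj8 was not called. The difference of Cox4i2 from MEF was 1.59 (SE 0.62, edgeR adjusted p = 0.0555). It passed the threshold by limma on log2(RPKM + 0.5), with an adjusted p of 0.00905, and on log2(RPKM + 0.1), with 0.00787. Cox6a2, the heart and muscle version of Cox6a1, had 0, 3, 1 and 0 reads in iPSC, 4 in ESC and 7 in MEF, close to the level of 3 reads. Counts of this size were even more often than odd: 62.4% to 67.5% of all counts from 1 to 20 were even, and 48.8% to 50.6% of higher ones. Whether reads of low counts are independent fragments was not tested, and intervals cover counting error only.

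**Figure D3:**
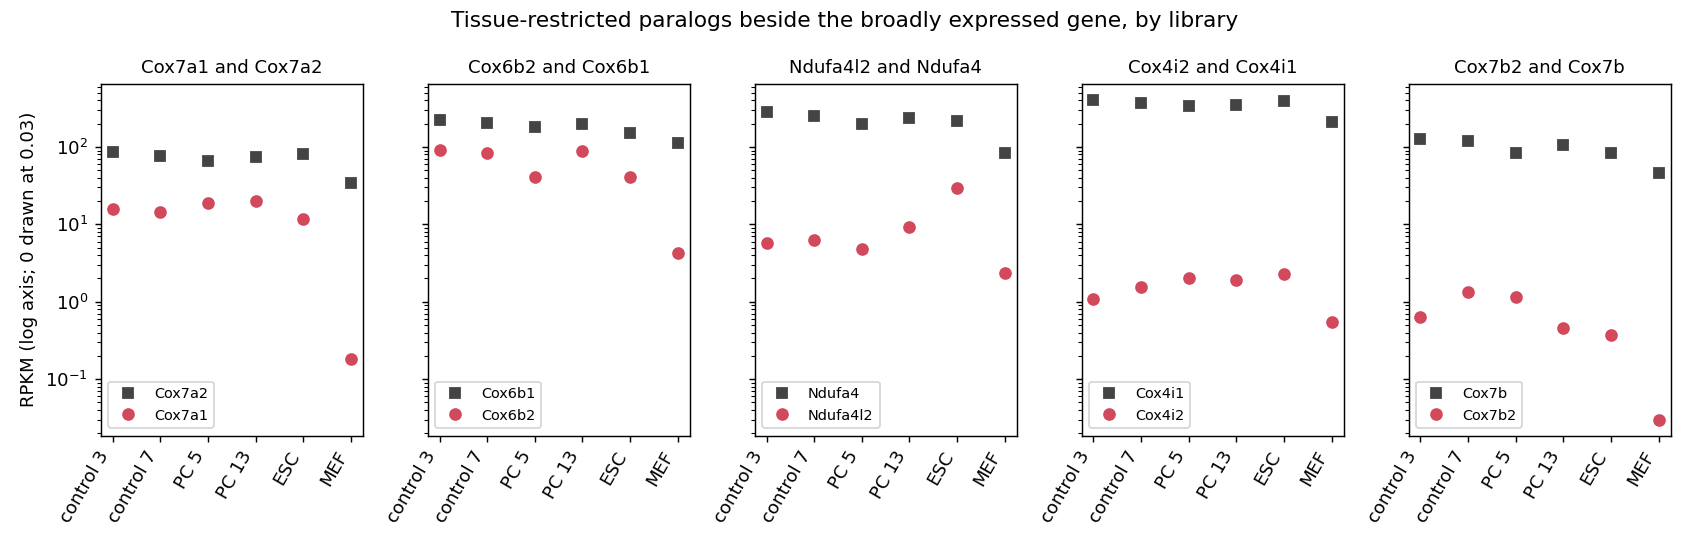
RPKM on a log axis of 5 tissue-restricted or inducible genes (red circles) and their broadly expressed partners (black squares) in each library, with a value of 0 drawn at 0.03. Cox7a1 and Cox6b2 are within 10-fold of their partners in the pluripotent libraries and far below them in MEF, and Ndufa4l2 is highest in ESC at 29.9 RPKM.

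Compared with ESC, the iPSC lines carried respiratory chain RNA at nearly the same level. The median subunit differed by 0.12 on the log2 scale, beside 0.03 over all genes tested. By edgeR's quasi-likelihood test with Benjamini-Hochberg adjustment, 0 of 83 genes were called higher and 1 lower, where 4.71% and 5.71% of all genes were, and 4.99% and 5.17% of those with at least 20 RPKM. At an unadjusted p under 0.05, edgeR had 7 higher and 4 lower, and DESeq2 had 3 and 3. DESeq2 gave the same numbers of adjusted calls (0 higher, 1 lower). By edgeR, 4899 of all 16435 genes tested were under that unadjusted p, 2463 of them higher. The median 95% interval of a subunit's difference spanned a factor of 1.28 in each direction.

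The gene called lower was Ndufa4l2, which is induced by low oxygen and is the paralog of Ndufa4 (chr10:127509274-127517154, plus strand). It was at 5.66, 6.20, 4.83 and 9.30 RPKM in iPSC, 29.9 in ESC and 2.36 in MEF, so that all 4 lines were below ESC and above MEF. Its log2 difference from ESC was −2.25 (SE 0.33, edgeR adjusted p = 0.0166), and that from MEF was 1.48 (SE 0.44, adjusted p = 0.0207). Ndufa4l2 was 12.2% of the pair with Ndufa4 in ESC and 1.98% to 3.74% in the iPSC lines. Ndufa4 itself, at 281, 252, 197 and 240 RPKM in iPSC and 215 in ESC, differed from ESC by 0.13 (SE 0.17). An exon of Ndufa4l2 shares bases with Shmt2 on the opposite strand, and the use of strand is not given, so reads there cannot be told apart. Shmt2 was at 77.9 to 103 RPKM in iPSC and 76.6 in ESC, a difference of 0.19 (SE 0.17). Under quantile normalization with limma voom, Ndufa4l2 kept its size (−2.28) and missed the threshold (adjusted p = 0.056).

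The complexes did not lie on the same side of ESC. For complex I, all 4 iPSC lines were above ESC for 25 of 38 genes and below it for 3, where the same held for 37.3% and 29.3% of all genes tested. The median difference in complex I was 0.17. For complex II, all 4 lines were below ESC for 4 of 4 genes: the differences were −0.38 for Sdha (SE 0.15), −0.21 for Sdhb (SE 0.13), −0.10 for Sdhc (SE 0.13) and −0.32 for Sdhd (SE 0.15). None of these 4 passed the threshold, the lowest edgeR adjusted p being 0.148. In complexes III, IV and V the medians were 0.06, 0.14 and 0.02. The complex I genes furthest above ESC were Ndufs1 at 0.49 (SE 0.17), Ndufa5 at 0.49 (SE 0.22) and Ndufv2 at 0.46 (SE 0.15). Their edgeR adjusted p-values were 0.106, 0.186 and 0.103, and Ndufs1 was called only when PC 5 was left out (0.54, adjusted p = 0.048). Ndufv3, a regulatory subunit of complex I, and Cox7a2l lay below ESC, with differences of −0.43 (SE 0.15) and −0.41 (SE 0.14), also uncalled. A difference between the complexes was not tested.

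Between PC and control iPSC, no subunit gene was called. Of the 83 tested genes 0 were higher and 0 lower by edgeR with Benjamini-Hochberg adjustment, where 0.0% of all genes were called in either direction. At an unadjusted p under 0.05, 0 were higher and 4 lower in edgeR, and DESeq2 had 0 and 1. The 4 were Cox7b, Cox7c, Atp5e and Uqcrb, named after their values were seen. Over all 16435 genes tested, edgeR had 385 under that p, 195 of them higher. The median 95% interval spanned a factor of 1.25 in each direction, which is the size of difference that 2 lines against 2 could bound. The point estimates lay mostly below 0, in 65 of 83 genes. Over all 16435 genes tested 8185 were below 0, and 2358 of the 4026 with at least 20 RPKM. The median subunit was at −0.11, beside 0 over all genes and −0.04 over genes with at least 20 RPKM. Medians were −0.11, −0.08, −0.07, −0.21 and −0.17 in complexes I to V.

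Both PC lines were below both control lines for 36 of the 84 genes and above them for 5, where this held for 15.2% and 16.2% of all genes tested. Among those below, Cox7b, Ndufa5 and Cox7c had the largest differences, −0.41 (SE 0.17), −0.38 (SE 0.19) and −0.37 (SE 0.13), each with an edgeR adjusted p of 0.963. Cox7b was at 128 and 118 RPKM in the control lines and 82.6 and 105 in the PC lines. Cox7c, another small complex IV subunit, was at 129 and 116 in the control lines and 94.97 and 97.8 in the PC lines, and the complex I subunit Ndufa5 was at 34.8 and 29.1 against 25.1 and 24.5. These 3 were picked from genes whose groups do not overlap, so their non-overlap is not a result. Cox7c had the smallest standard error of the 3. Among those above, Cox4i2, Cox7a1 and Ndufa8 differed by 0.55 (SE 0.47), 0.34 (SE 0.26) and 0.23 (SE 0.14). The other genes above were Uqcrfs1 and Atp5d. Single lines moved several of these values. Cox7b was at −0.22 without PC 5 and −0.63 without PC 13, Ndufa5 at −0.25 without control 3, and Cox4i2 at 0.33 without control 3 and 0.84 without control 7. Cox6b2, at −0.46 (SE 0.34), was at 0.02 without PC 5 and −1.16 without PC 13.

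The lines differed from one another as single libraries as well. Measured against the mean of the other 3 iPSC lines, the median subunit was higher by 0.10 on the log2 scale in control 3 (65 of 83 genes above) and by 0.05 in control 7 (59 above). It was lower in PC 5, at −0.13 (21 above), and near 0 in PC 13, at −0.02 (35 above). Over all genes tested the 4 medians lay between 0.00 and 0.02. The shares of all genes above were 50.2%, 55.7%, 50.1% and 52.4% in control 3, control 7, PC 5 and PC 13. The median of the PC against control differences moved to −0.17 when PC 13 was left out and to −0.09 when PC 5 was left out.

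The 4 subunit genes on chromosome 11 were an exception in PC 5. Uqcr10 and Uqcrq of complex III and Atp5g1 and Atp5h of complex V were, among the iPSC lines, each highest in PC 5 and lowest in PC 13. Uqcrq was at 190, 191, 257 and 170 RPKM in the iPSC lines, 193 in ESC and 56.0 in MEF, and Atp5h, the d subunit of the synthase stalk, was at 237, 224, 287 and 203, 295 and 130. Their median deviation in PC 5 was 0.36 (4 of 4 above), against −0.14 for the 79 genes on other chromosomes (17 above). All 1352 tested genes of chromosome 11 had a median deviation of 0.42 in PC 5 and of 0.31 in ESC. The subunit genes of the chromosome had a median of 0.00 in ESC, with 2 above and 2 below. Without chromosome 11 in the fit, 0 subunit genes were called between PC and control, as before.

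**Figure D4:**
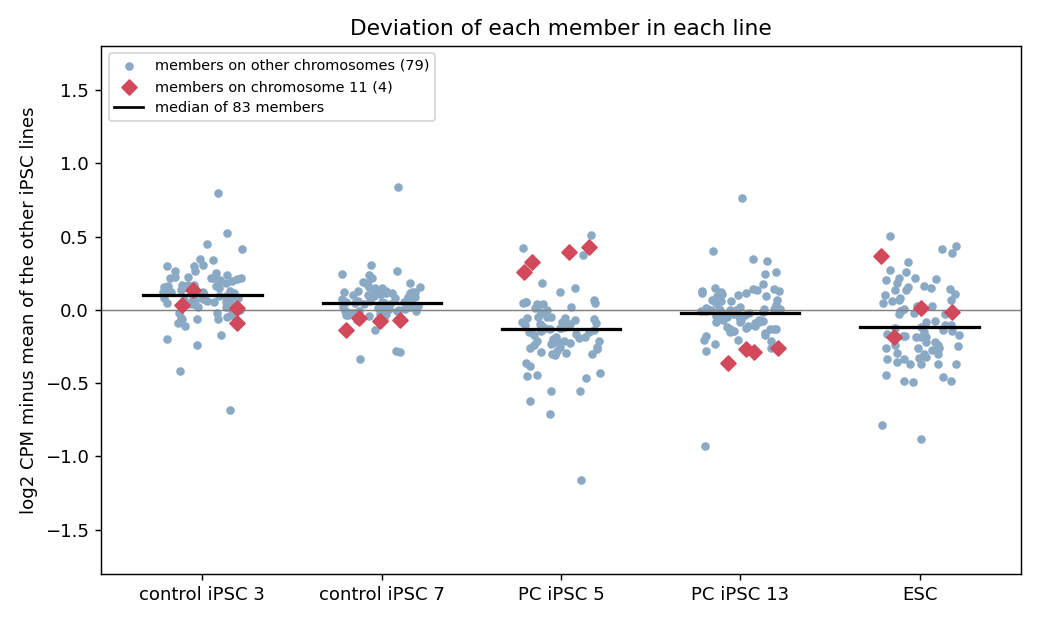
Log2 CPM (counts scaled to library size) of each of the 83 tested genes minus the mean of the other iPSC lines, for the 4 iPSC lines and for ESC against all 4; red diamonds are the 4 genes on chromosome 11 and black lines are medians of all 83. PC 5 has the lowest median, −0.13, while its red diamonds lie above 0; 2 points fall outside the axis in ESC, Ndufa4l2 at 2.27 and Cox8c at −2.30.

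ESC and MEF, with 1 library each, were compared without a test. ESC was above MEF for 76 of the 84 genes. The count at least 2-fold higher in ESC was 44, beside 32.8% of all genes tested, and 28.6% of all genes were at least 2-fold lower. Genes at 0 in both libraries are included in this count and in both shares. Cox8c, with 0 reads in ESC and MEF, is such a gene among the 44. Cox8c was also the 1 gene counted as at least 2-fold lower in ESC, again only because both values were 0. Cox6a2 was lower in ESC by less than 2-fold, at 0.211 against 0.369 RPKM, with 4 and 7 reads. The median ratio of ESC to MEF was 2.02, and by complex it was 1.97, 1.73, 1.99, 2.41 and 2.07 for I to V. As in the iPSC lines, complex II stood closest to MEF and complex IV furthest.

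The genes that assemble and supply the chain were examined as further lists. In the same comparison with MEF, 36.5% of all genes tested were called higher and 31.6% lower, and 56.5% and 18.9% of those with at least 20 RPKM. Of 16 tested assembly factors of complex I, 9 were called higher in iPSC than in MEF and 0 lower, with a median log2 difference of 0.72. The largest differences were those of Ndufaf6 at 2.92 (SE 0.23) and Nubpl, which delivers iron-sulfur clusters to complex I, at 2.82 (SE 0.23). Of 35 assembly factors of complexes II to V, 19 were higher and 2 lower. The higher ones included the copper chaperone Cox17, at 92.9, 84.8, 80.9 and 93.0 RPKM in iPSC, 64.2 in ESC and 14.3 in MEF (2.65, SE 0.21), and Cox18, which inserts a mitochondrially encoded subunit of complex IV (2.41, SE 0.19). The 2 lower were Sdhaf2 at −0.50 (SE 0.15) and Cox20 at −0.81 (SE 0.28). Among 15 genes of cytochrome c and ubiquinone supply, 9 were higher and 2 lower (Adck3 and Coq10b). Cyc1, the cytochrome c1 subunit of complex III whose symbol lacks the prefix, was higher by 2.14 (SE 0.16). Of 11 regulators of nuclear or mitochondrial respiratory gene expression, 8 were higher and 1, Tfb2m, was lower. The same list held 4 genes that act on the complexes themselves, of which Atpif1, Usmg5 and Higd2a were higher and Higd1a was not called. Nrf1, whose motif is shown above, was higher by 1.06 (SE 0.16), Gabpa by 0.53 (SE 0.15), and Yy1 differed by 0.30 (SE 0.18, edgeR adjusted p = 0.184). Ppargc1a, a coactivator of respiratory genes in heart and muscle, was at or under 0.0715 RPKM in all 6 libraries.

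Against ESC, edgeR called 1 of the 16 assembly factors of complex I higher in iPSC and 1 lower. Of the 35 assembly factors of complexes II to V, 1 was higher and 0 lower. Of 16 genes of cytochrome c and ubiquinone supply, Cyc1 among them, 0 were higher and 2 lower. Over all genes tested, 4.71% were called higher and 5.71% lower. Tmem126a, a complex I assembly gene, was higher in iPSC by 1.04 (SE 0.23, adjusted p = 0.0375), and Cox18 by 0.72 (SE 0.17, adjusted p = 0.042). Ndufaf7, another complex I assembly gene, was lower, with a log2 difference of −0.72 (SE 0.15, adjusted p = 0.0331). Coq2 of ubiquinone synthesis was also lower, at −0.70 (SE 0.15, adjusted p = 0.0355). Cyct, the testis form of cytochrome c, was at 43.4, 42.2, 55.7 and 42.0 RPKM in iPSC, 79.6 in ESC and 0 in MEF and was lower in iPSC than in ESC, with a log2 difference of −0.84. No regulator was called against ESC, and no gene of these 4 lists was called between PC and control iPSC. The 13 mitochondrially encoded subunits were looked for by name and 0 were found in the gene table used here, so they were not analysed.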

How the data were processed

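RNA of 6 libraries was sequenced. Per the file headers, the authors deposited uniquely assigned read counts per gene, RPKM values and coverage. Coverage, taken as the percent of gene length covered, was used for no result given here. Counts in the series and per-library tables were identical. The submitters' processing notes name CASAVA 1.8.2 and mm10. The aligner, the counter, the annotation and the strand setting were not given in the sources used here.

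Differences in counts were tested by edgeR (4.0.16, under R 4.3.3; quasi-likelihood, TMM scaling, filterByExpr leaving 16435 genes) in 1 model with 4 group means over all 6 libraries. Residual degrees of freedom were 2, all from the iPSC lines, with 4.75 more from the prior, and the common biological coefficient of variation was 0.18. Contrasts were PC minus control, mean iPSC minus ESC and mean iPSC minus MEF, with Benjamini-Hochberg adjustment over all genes tested and a threshold of 0.05. All 3 contrasts use the same iPSC libraries. The script was tested on simulated data. Alternatives were RLE, upper-quartile and no scaling, quantile normalization with limma 3.58.1 voom, DESeq2 1.42.0, limma on log2(RPKM + 0.5) and log2(RPKM + 0.1), no filter, a mean of at least 5 RPKM, chromosome 11 left out, each iPSC line left out in turn, and for PC against control the 4 iPSC lines alone.

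RPKM was used for levels, and fold changes come from counts. A count of 0 allows up to 3 reads, 0.107 to 0.113 CPM in these libraries. Reads carry no molecular identifiers, so intervals and floors cover counting error only. Where strand is not used, genes overlapping on opposite strands cannot be told apart.

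Members and lists were chosen with earlier results of these data known, so no set test was made. Cyc1 and 4 genes that do not regulate expression were set apart from their lists by their known function, after the values were seen. Genes named are the core subunits, Cox7b, tissue-restricted paralogs and their partners, genes past a threshold (the largest folds where many), for PC against control the 3 largest non-overlapping differences in each direction, the highest and lowest of each complex, those on chromosome 11, and up to 4 of each accessory list; others were named after their values were seen, and some results are not reported here. Copies were searched with blastn in GENCODE M21 transcripts, and promoters are RefSeq windows of GRCm38.p6.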

Additional observations from a re-analysis of the deposited data

Results flagged for a closer look

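In 4 of the 84 genes, 1 of the 4 iPSC lines stood far from the other 3, by the 95% limit of Dixon's test (the gap to the nearest line as a share of the range). This is 4.76% of the genes, and chance alone flags about 1 in 20 groups. Cox6b2 was at 40.5 RPKM in PC 5, against 83.6 to 91.1 in the other lines. Cox6c, a small complex IV subunit, was at 172 RPKM in PC 5, against 228 to 233. Ndufs3, a core subunit of complex I, was at 58.9 RPKM in PC 5, against 65.3 to 66.5. Ndufa10, an accessory subunit of complex I, was at 105 RPKM in control 3, against 87.8 to 90.6. PC 5 was the line set apart in 3 of these 4 genes.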

How the results depend on the processing

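Of the 74 genes called higher in iPSC than in MEF, 65 were called in every one of the 14 alternatives in which they could be fitted, and none of the 74 had a negative difference in any. Those that lost the call in at least 1 were Atp5e, Atp5j, Atp5s, Cox7a2l, Cox7b2, Cox8c, Ndufa4l2, Ndufb10 and Sdhc. With a mean of at least 5 RPKM, the median difference from MEF was 0.97, beside 0.06 over all genes in that fit instead of 0.16, Uqcrh was the 1 gene called lower, and the uncalled differences of Atp5l (−0.031) and Ndufa8 (−0.064) turned negative. Quantile normalization moved the median over all genes to 0.04, with the subunit median at 1.22. Leaving out each line gave 0 to 1 called lower against MEF (Uqcrh without PC 13). Against ESC, quantile normalization gave 0 lower calls, and leaving out each line gave 0 to 2 higher calls and 1 to 2 lower; without PC 5 these were Cox6b2 and Ndufs1 higher and Ndufa4l2 and Atp5h lower. The median difference between PC and control ran from −0.17 to −0.087 when lines were left out, and that of Cox6b2 ran from −1.16 to 0.021, the latter without PC 5. Leaving out lines, chosen after seeing the data for these counts, gave 42 to 56 genes with PC lines below control and 9 to 17 above, where 26.6% to 33.6% and 28.5% to 42.1% of all genes were. Fewer lines leave more non-overlap by construction; otherwise the cause was not tested. No paired analysis was possible because the line numbers 3 and 7, and 5 and 13, differ between the groups.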
